A study of Homo sapiens with 16 samples.

Results

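The net change from untreated cells was examined in MCF10A cells that had received fibrillar collagen together with the RUNX inhibitor AI-10-104 (RUNXi). MCF10A cells are human mammary epithelial cells that became immortal without a viral gene and form no tumors, and their genotype is given as diploid. The 4 libraries of collagen with RUNXi (RUNXi replicates 1 to 4) and the 4 libraries of the vehicle control (control replicates 1 to 4) were chosen by their labels and fitted alone, 8 of the 16 libraries in the series. The control cells received DMSO and normal medium without collagen. The RUNXi cells were exposed to AI-10-104 at 5 μM for 48 h in the collagen stimulation assay, and collagen was present at 0.05 mg/mL, with NaOH for polymerization, over the last 24 h. All groups were grown in the same medium with insulin, EGF, hydrocortisone, cholera toxin and horse serum. As collagen, NaOH and AI-10-104 were all absent from the control, their parts in a difference cannot be told apart in this comparison. Libraries of collagen alone (3, without replicate 3, which the study removed) and of collagen with the DDR1 inhibitor DDR1-IN-1 (DDR1i, 4 libraries, 2 μM for 48 h) served as references for the same genes.

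RUNX1, RUNX2 and RUNX3 are transcription factors that share a DNA-binding domain and bind DNA stably only with the partner protein CBFβ. AI-10-104 is an allosteric inhibitor that prevents CBFβ from binding RUNX proteins. In the mammary gland, RUNX1 is known as a regulator of lineage choice and of the exit from the progenitor state. Collagen signals to breast epithelial cells through the receptor tyrosine kinase DDR1 and through integrins.

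Total counts were 12184619 to 44332378 in the control libraries and 15558341 to 26162434 in the RUNXi libraries. Control replicates 2 and 3 stood apart from the other 6 libraries in principal component analysis. They had no count for 1063 and 779 of the genes tested, against 0 in control replicates 1 and 4 and 5 to 545 in the RUNXi libraries. For the genes described below whose call was lost without these 2 libraries, that adjusted p is also given. All 8 markers of basal epithelium were detected (summed level 15898 to 20440 CPM in the control and 18736 to 22022 CPM with RUNXi). *CDKN2A*, which is deleted in MCF10A, and *COL3A1*, *LYZ* and *CDH5*, markers of fibroblasts, leukocytes and endothelium, had 0 counts in all 8 libraries. Other markers of these lists were detected, among them *DCN* (3.50 to 29.0 CPM), *COL1A1* (0 to 6.41 CPM) and *CD68* (9.19 to 25.5 CPM). The summed level of the fibroblast markers was 9.09 to 29.0 CPM in the control and 7.58 to 20.5 CPM with RUNXi. That of the leukocyte markers was 13.5 to 25.5 and 9.19 to 25.4 CPM, and that of the endothelial markers 0.754 to 2.42 and 0 to 1.29 CPM. Nothing in the labels states that replicates were separate cultures, so p-values measure the spread between these libraries, which may be technical.

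Of 12806 genes tested, 38 were differentially expressed (DEGs), or 0.297%, at an adjusted p under 0.05 (quasi-likelihood test of edgeR, adjusted by the Benjamini-Hochberg method). Of these, 22 were higher with collagen and RUNXi (0.172% of the genes tested) and 16 were lower (0.125%). The higher genes held 5 antioxidant and detoxification genes known as NRF2 targets, the ferritin light chain gene *FTL* and the nuclear receptor gene *NR4A1*. The lower genes held 2 each of squamous differentiation (*SPRR1B*, *AQP3*) and sterol synthesis (*INSIG1* among them), both chains of an amino acid transporter (*SLC7A5*, *SLC3A2*), and *DHRS3* and *CA2*. Values below are normalized CPM, counts relative to library size scaled by edgeR's TMM method. Fold changes ranged from 1.37 to 6.14, with a median of 1.89 among the higher and 1.77 among the lower genes. In 37 of the 38 DEGs no library of one group fell within the range of the other. Across all genes tested, 302 (2.36%) lay above the control in this way and 259 (2.02%) below it. The biological coefficient of variation was 0.335, and 741 genes had an unadjusted p under 0.05 (375 higher and 366 lower).

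All 38 DEGs kept their direction in each of 23 other fits, and 10 kept their call in all of them. Without control replicates 2 and 3, 17 genes were called (13 higher and 4 lower), of which 15 were among the 38. When each library was corrected for its trend over transcript length, the calls were 17 higher and 20 lower. When it was corrected for GC content instead, they were 22 higher and 33 lower. Of the 38 genes, 24 came under the rule for named genes, and the other 14 were named after their values were seen.

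**Figure D1:**
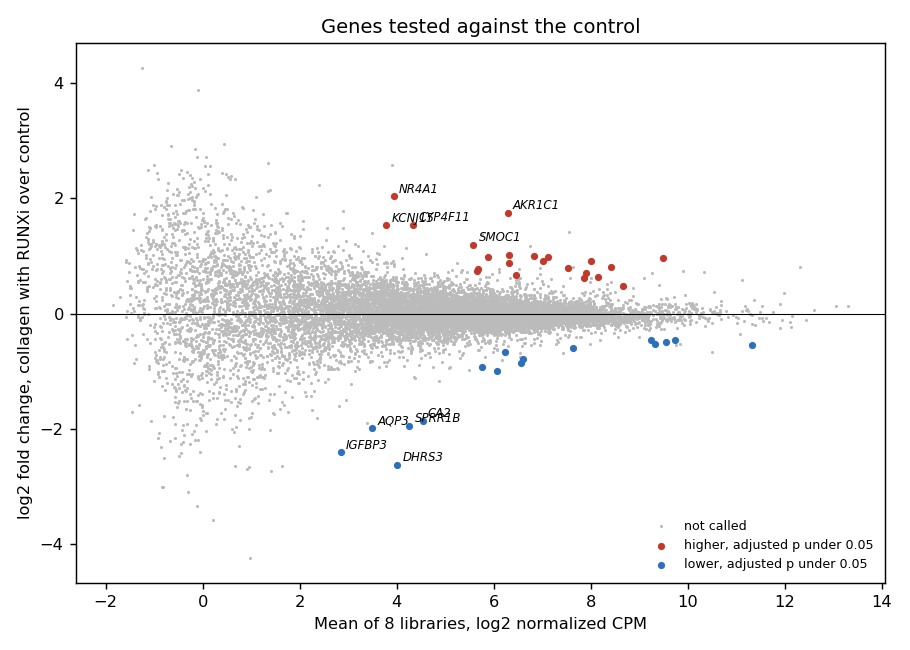
Log2 fold change of collagen with RUNXi over the control against the mean level of the 8 libraries in log2 normalized CPM, 1 point per gene tested. The 22 higher (red) and 16 lower (blue) genes with an adjusted p under 0.05 lie between -2.62 and 2.04, and larger changes of low genes in grey were not called.

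NRF2 is a transcription factor that KEAP1 keeps at a low level and that oxidants and electrophiles stabilize. It binds antioxidant response elements of genes for quinone reduction, thioredoxin, glutathione synthesis and iron storage. The list of NRF2 targets had 26 genes, all of them tested, of which 5 were higher (*AKR1C1*, *AKR1C3*, *NQO1*, *ABCC3* and *TXN*), 0 were lower and 21 were not called. At an unadjusted p under 0.05, 16 were higher and 0 lower, against 375 and 366 of the 12806 genes tested. The libraries of the groups did not overlap for 14 members, all higher, against 302 (2.36%) higher over all genes tested. Of 26 log2 fold changes, 24 were positive. The list was chosen with earlier results of these data known, so these counts are not independent of them. The median log2 fold change was 0.50 in the list and 0.0014 over all genes tested.

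*AKR1C1*, an aldo-keto reductase of steroids and reactive carbonyls (chromosome 10, 5005445 to 5025475, GRCh37), had 34.9, 45.1, 23.5 and 39.4 CPM in control replicates 1 to 4 and 135, 85.0, 158 and 104 CPM in RUNXi replicates 1 to 4. Every RUNXi library was above every control library. The gene was 3.37-fold higher (log2 fold change 1.75, standard error 0.20, adjusted p = 0.00100). Its neighbour *AKR1C2* (chromosome 10, 5029967 to 5060223) had 103, 105, 101 and 99.9 CPM in the control and 262, 221, 462 and 149 CPM with RUNXi. The groups did not overlap either and the RUNXi libraries were widely spread, with an adjusted p of 0.0658. *AKR1C3*, a further member of the cluster (chromosome 10, 5077546 to 5149878), was higher by 0.98 on the log2 scale (standard error 0.17, adjusted p = 0.0163, and 0.0844 without control replicates 2 and 3). These genes are close paralogs, and how reads shared between them were counted is not given in the sources used here.

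*NQO1*, a quinone reductase (chromosome 16, 69740899 to 69760571), had 252, 217, 209 and 310.4 CPM in the control and 473, 416, 435 and 414 CPM with RUNXi. All RUNXi libraries exceeded the highest control library, replicate 4. It was 1.76-fold higher (log2 fold change 0.81, standard error 0.11, adjusted p = 0.00322). The efflux transporter *ABCC3* was higher by 0.92 on the log2 scale (adjusted p = 0.0158) and thioredoxin, *TXN*, by 0.49 (adjusted p = 0.0221). *TXN* lost its call without any 1 of 6 of the 8 libraries, and its adjusted p was 0.230 without control replicates 2 and 3. Of the members that were not called, *AKR1B1*, *TXNRD1* and the glutamate-cysteine ligase subunit *GCLC* had log2 fold changes of 0.43, 0.61 and 0.60, with adjusted p of 0.0641, 0.0658 and 0.0658. Heme oxygenase, *HMOX1*, was low, with 2.95, 0, 1.32 and 2.91 CPM in the control and 10.6, 7.92, 11.3 and 5.04 CPM with RUNXi. Its groups did not overlap, and its adjusted p was 0.378. *NFE2L2*, which encodes NRF2, had 92.0 to 152 CPM in the control and 87.8 to 102 CPM with RUNXi, with a log2 fold change of -0.43 and an adjusted p of 0.451. *KEAP1* had 129.9 ± 11.6 and 123 ± 8.05 CPM (SD, n = 4 each). *NFE2L2*, *KEAP1*, *AKR1C2*, *FTH1*, *TFRC* and the other genes described below that were not called were likewise named after their values were seen, except the strongest members of lists and the genes of the RUNX complex.

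Ferritin stores iron in cells as a shell of light and heavy chains. The light chain gene *FTL* (chromosome 19, 49468566 to 49470136) had the smallest adjusted p of all genes tested, together with *AKR1C1*. It had 466, 485, 504 and 498 CPM in the control and 925, 922, 1212 and 779 CPM with RUNXi. The control libraries lay close together, and the lowest RUNXi library, replicate 4, was well above them. *FTL* was 1.97-fold higher (log2 fold change 0.97, standard error 0.11, adjusted p = 0.00100). The heavy chain gene *FTH1* had 3002 to 4216 CPM in the control and 4285 to 9486 CPM with RUNXi, also without overlap, and was not called (log2 fold change 0.80, adjusted p = 0.215). The transferrin receptor *TFRC* had a log2 fold change of 0.56 (adjusted p = 0.0570). Of the 11 tested members of the ferritin and iron list, *FTL* was the 1 gene called, 4 lay above the control without overlap, and the median log2 fold change was 0.03. Over all 12806 genes tested, 22 (0.172%) were called higher and 302 (2.36%) lay above the control without overlap. Ferritin genes have many processed pseudogenes, and reads shared with them may be counted at either.

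**Figure D2:**
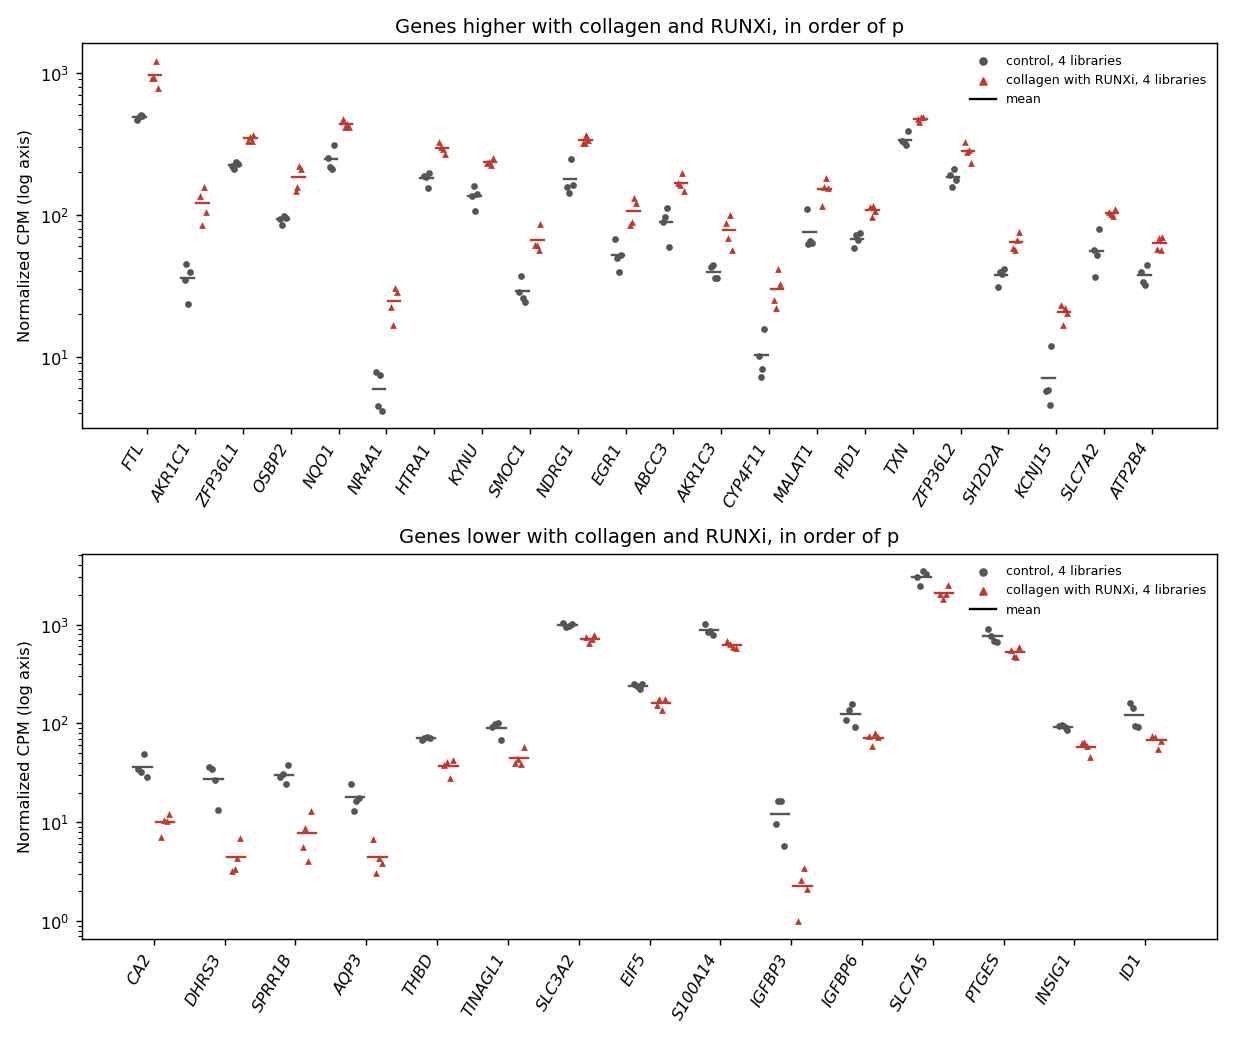
Normalized CPM of 37 of the 38 DEGs in every library (log axis), with 22 higher genes in the upper and 15 lower genes in the lower panel, each in order of p. Grey circles are the 4 control libraries, red triangles the 4 libraries of collagen with RUNXi, and bars their means. The groups are separate for all genes shown except *SLC7A5*.

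Further higher genes act in metabolism and stress. *OSBP2*, of the oxysterol-binding protein family, had 84.7 to 98.6 CPM in the control and 146 to 222 CPM with RUNXi. It was higher by 0.98 on the log2 scale (standard error 0.13, adjusted p = 0.00283). *CYP4F11*, a cytochrome P450 that hydroxylates fatty acids, had 10.1, 7.18, 8.23 and 15.6 CPM in the control and 24.99, 21.99, 41.3 and 32.5 CPM with RUNXi, without overlap. It was 2.91-fold higher (adjusted p = 0.0178), and its adjusted p was 0.133 without control replicates 2 and 3. *KYNU*, an enzyme of tryptophan breakdown, was 1.74-fold higher (adjusted p = 0.00389). *NDRG1*, a gene known to respond to hypoxia and metals, was 1.88-fold higher (143 to 246 CPM in the control, 318 to 362 CPM with RUNXi, adjusted p = 0.00480). It was the 1 call among 29 tested genes of glycolysis and hypoxia, of which 19 had a negative log2 fold change.

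Sterol and fatty acid synthesis genes are controlled by the SREBP transcription factors, which INSIG1 holds in the endoplasmic reticulum when sterols are abundant. Of the 31 tested members, 2 were lower (*INSIG1* among them), 0 were higher and 29 were not called. The libraries did not overlap for 13 members, all lower, against 259 (2.02%) lower over all genes tested. Of 31 log2 fold changes, 28 were negative, and the median was -0.33. At an unadjusted p under 0.05, 18 members were lower and 0 higher, against 366 and 375 of the 12806 genes tested. This list too was chosen with earlier results of these data known.

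*INSIG1* (chromosome 7, 155089486 to 155101945) had 94.9, 95.5, 91.6 and 85.5 CPM in the control and 62.8, 64.3, 59.3 and 45.7 CPM with RUNXi. The groups did not overlap. *INSIG1* was 1.58-fold lower (log2 fold change -0.66, standard error 0.13, adjusted p = 0.0403). It kept its call in 1 of 8 fits that each left out a library, and without control replicates 2 and 3 its adjusted p was 0.161. ATP citrate lyase (*ACLY*), stearoyl-CoA desaturase (*SCD*) and fatty acid synthase (*FASN*) had log2 fold changes of -0.40, -0.52 and -0.54, without overlap, and adjusted p of 0.0641, 0.0672 and 0.0672. The number of members called ranged from 0 to 11 over 24 fits, and all their medians were negative (-0.41 to -0.27). For the NRF2 targets, 2 to 11 members were called and the medians were 0.39 to 0.56. Without control replicates 2 and 3, 3 NRF2 targets and 0 sterol and fatty acid genes were called.

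**Figure D3:**
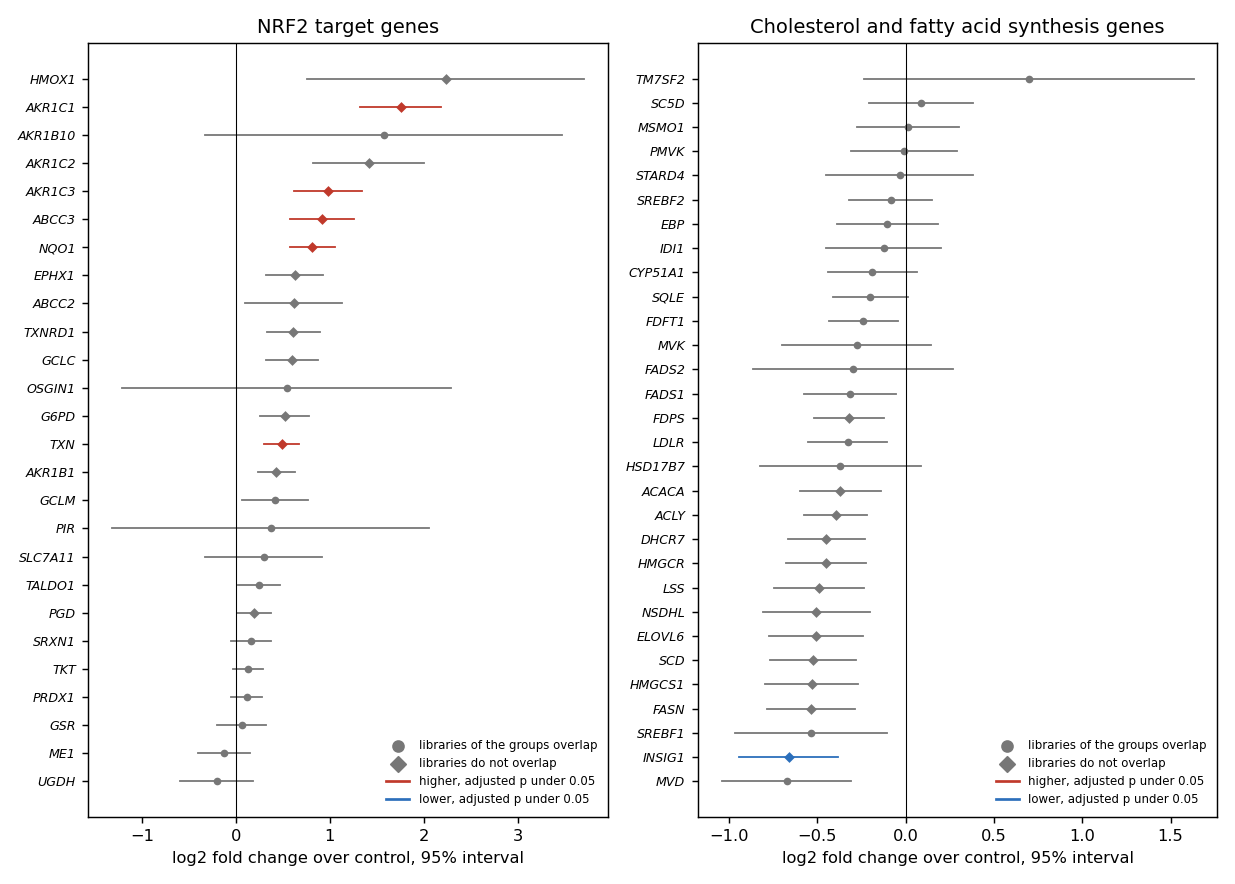
Log2 fold change over the control with its 95% interval for the 26 NRF2 target genes (left) and 30 of the 31 tested cholesterol and fatty acid synthesis genes (right). Colour marks an adjusted p under 0.05 and diamonds mark genes whose libraries do not overlap, 14 on the left and 12 on the right.

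The largest decreases among the DEGs were in *DHRS3*, *IGFBP3*, *AQP3*, *SPRR1B* and *CA2*. *DHRS3*, which reduces retinaldehyde to retinol (chromosome 1, 12627939 to 12678216), had 36.0, 34.3, 27.0 and 13.3 CPM in the control and 3.20, 3.38, 4.38 and 6.97 CPM with RUNXi. Control replicate 4 was the lowest of its group and still above all RUNXi libraries. The gene was 6.14-fold lower, the largest fold change among the 38 (log2 fold change -2.62, standard error 0.34, adjusted p = 0.00209). *CA2*, carbonic anhydrase II (chromosome 8, 86376197 to 86393722), had 34.9, 31.9, 49.6 and 28.9 CPM in the control and 7.11, 10.5, 10.4 and 12.0 CPM with RUNXi. It was 3.63-fold lower (log2 fold change -1.86, standard error 0.23, adjusted p = 0.00159), again without overlap. Both genes kept their call in all 8 fits that left out a library. *DHRS3* kept its call in 22 of the 23 other fits and lost it by limma-voom.

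*SPRR1B*, a precursor of the cornified envelope (chromosome 1, 153003679 to 153005376), had 28.5, 30.6, 24.2 and 38.1 CPM in the control and 5.65, 8.77, 4.06 and 12.9 CPM with RUNXi. *AQP3*, a water and glycerol channel of stratified epithelium (chromosome 9, 33441154 to 33447594), had 24.5, 12.98, 16.6 and 17.5 CPM in the control and 6.74, 3.09, 4.31 and 3.89 CPM with RUNXi. The groups were separate for both. *SPRR1B* was 3.84-fold lower and *AQP3* 3.97-fold lower (adjusted p = 0.00736 each). These were the 2 calls among 28 tested squamous genes, of which 4 lay below the control without overlap and 18 had a negative log2 fold change (median -0.19). The desmosomal cadherin *DSG3* and involucrin, *IVL*, were the other 2 without overlap, at log2 fold changes of -0.55 and -2.64 (adjusted p = 0.0904 and 0.528). Over all 12806 genes tested, 16 (0.125%) were called lower and 259 (2.02%) lay below the control without overlap. *S100A14*, a calcium-binding protein of epithelium, was 1.40-fold lower (adjusted p = 0.0221, and 0.0844 without control replicates 2 and 3), and 2 of 8 fits that left out a library kept the call.

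The amino acid transporter LAT1 is a dimer of the chains encoded by *SLC7A5* and *SLC3A2*, and both were lower. *SLC3A2* had 952 to 1033 CPM in the control and 646 to 777 CPM with RUNXi (1.37-fold lower, adjusted p = 0.0156). *SLC7A5* had 2991, 2461, 3455 and 3208 CPM in the control and 2032, 1801, 2029 and 2489 CPM with RUNXi, so that control replicate 2 lay just below RUNXi replicate 4. It was 1.45-fold lower (adjusted p = 0.0381). *SLC7A2*, a transporter of cationic amino acids, was 1.84-fold higher (adjusted p = 0.0404), and *EIF5*, a translation initiation factor, was 1.51-fold lower (adjusted p = 0.0158). Without control replicates 2 and 3 none of these 4 genes was called, with an adjusted p of 0.0623 for *SLC3A2*, 0.0697 for *SLC7A5*, 0.179 for *SLC7A2* and 0.0598 for *EIF5*. Of the 8 fits that each left out a library, 4, 3, 1 and 4 kept the call, in the same order. The unfolded protein and ATF4 list had 0 calls among 30 genes, with a median of -0.05. It had 0 calls by DESeq2 and 1 at an unadjusted p under 0.05.

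Transcription factors and regulators of mRNA decay made up another group. *NR4A1*, an orphan nuclear receptor of the immediate early response (chromosome 12, 52416616 to 52453291), had 7.83, 4.51, 7.41 and 4.16 CPM in the control and 22.5, 16.7, 30.7 and 28.5 CPM with RUNXi. It was 4.10-fold higher, the largest increase among the DEGs (log2 fold change 2.04, standard error 0.29, adjusted p = 0.00322). *EGR1*, another immediate early factor, had 67.8, 49.4, 39.5 and 52.3 CPM in the control and 84.9, 88.6, 132 and 121 CPM with RUNXi, without overlap (2.03-fold higher, adjusted p = 0.0156). Its adjusted p was 0.139 without control replicates 2 and 3. Among 19 tested AP-1 and immediate early genes, *EGR1* was the 1 call, 16 log2 fold changes were positive and the median was 0.23. *FOS* had 66.9 to 231 CPM in the control and 214 to 294 CPM with RUNXi, with overlap and an adjusted p of 0.624.

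*ZFP36L1* and *ZFP36L2* encode proteins that bind AU-rich elements and promote decay of the mRNAs that carry them. *ZFP36L1* (chromosome 14, 69254377 to 69262970) had 221, 209, 234 and 227 CPM in the control and 333, 355, 331 and 366 CPM with RUNXi. The spread within each group was small beside the gap, and the gene was 1.55-fold higher (log2 fold change 0.64, standard error 0.09, adjusted p = 0.00283). *ZFP36L1* kept its call in 22 of the 23 other fits and lost it with all 16 libraries in the fit (adjusted p = 0.132). *ZFP36L2* was 1.53-fold higher (adjusted p = 0.0255, and 0.0844 without control replicates 2 and 3). *ID1*, which blocks basic helix-loop-helix factors, had 159.7, 142, 94.4 and 91.4 CPM in the control and 74.5, 72.6, 55.2 and 66.4 CPM with RUNXi. It was 1.81-fold lower (log2 fold change -0.86, standard error 0.17, adjusted p = 0.0404) and kept its call in 2 of the 8 fits that left out a library, with an adjusted p of 0.0990 without control replicates 2 and 3. *ID1* was the 1 call among 16 tested ID and BMP feedback genes. The nuclear long noncoding RNA *MALAT1* was 2.01-fold higher (adjusted p = 0.0193), with control replicate 1 at 110.3 CPM and the other controls at 62.3 to 65.0 CPM. Without control replicates 2 and 3 its adjusted p was 0.408, and 3 of 8 fits that left out a library kept the call.

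Secreted and cell surface proteins went both ways. *HTRA1*, a secreted serine protease, had 155 to 198 CPM in the control and 267 to 326 CPM with RUNXi (1.63-fold higher, adjusted p = 0.00367). *SMOC1*, a calcium-binding matrix protein, was 2.29-fold higher (adjusted p = 0.00389). *TINAGL1*, a matricellular protein related to tubulointerstitial nephritis antigen, had 67.8 to 99.9 CPM in the control and 39.1 to 57.7 CPM with RUNXi (1.99-fold lower, adjusted p = 0.00915). It was the 1 call among 11 tested matricellular genes, and its adjusted p was 0.110 without control replicates 2 and 3. Thrombomodulin, *THBD*, was 1.91-fold lower (adjusted p = 0.00813, and 0.0623 without those controls). *IGFBP3* and *IGFBP6*, which bind insulin-like growth factors, were 5.31-fold and 1.73-fold lower (adjusted p = 0.0281 and 0.0381). Each kept its call in 1 of the 8 fits that left out a library. *IGFBP3* was low, with 5.74 to 16.5 CPM in the control and 0.998 to 3.41 CPM with RUNXi, and without control replicates 2 and 3 the adjusted p of both was about 0.38 (0.382 and 0.383). *PTGES*, a prostaglandin E synthase, was 1.45-fold lower (adjusted p = 0.0387, and 0.101 without those controls).

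The remaining higher genes encode a calcium pump (*ATP2B4*, 1.68-fold, adjusted p = 0.0427), an inward rectifier potassium channel (*KCNJ15*, 2.90-fold, adjusted p = 0.0369), an adaptor protein with an SH2 domain (*SH2D2A*, 1.72-fold, adjusted p = 0.0351) and a phosphotyrosine interaction domain protein (*PID1*, 1.60-fold, adjusted p = 0.0208). Without control replicates 2 and 3 their adjusted p was 0.267, 0.199, 0.0990 and 0.0787. Of the 8 fits that each left out a library, 1, 1, 2 and 4 kept the call, in the same order.

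The genes of the inhibited complex itself were not called. *RUNX1* had 56.7, 37.1, 63.8 and 59.6 CPM in the control and 58.5, 55.6, 67.5 and 66.0 CPM with RUNXi. The groups overlapped (log2 fold change 0.19, 95% interval -0.16 to 0.53, adjusted p = 0.983). *CBFB* had 62.4 ± 6.46 and 62.2 ± 6.16 CPM (SD, n = 4 each), with an interval of -0.29 to 0.28. *RUNX2* was low, at 0 to 4.14 CPM in the control and 2.45 to 3.20 CPM with RUNXi, *RUNX3* had 0 counts in all 8 libraries and *DDR2* was below the filter. *DDR1* had 148 ± 15.9 and 144 ± 16.4 CPM (SD, n = 4 each), with an interval of -0.28 to 0.21. These levels do not measure the binding of RUNX proteins to CBFβ. Of 7 *RUNX1* target genes named by the study, *ID1* was lower and the other 6 were not called. *CEBPD* had 68.7 ± 12.4 and 48.7 ± 9.85 CPM (SD, n = 4 each, adjusted p = 0.527), and *MYC*, *STAT3*, *DUT*, *ANP32B* and *PLEC* had log2 fold changes of -0.18 to 0.15. The study had picked these targets in organoids under DDR1i.

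Most other lists had 0 calls by edgeR. These were mitosis (34 genes tested, 31 negative, median -0.15, and 6 lower at an unadjusted p under 0.05), DNA replication (36, median -0.09, 1 lower), ribosomal proteins (79, 65 positive, median 0.06, 2 higher), respiratory chain subunits (51, median 0.02, 2 higher and 1 lower), proteasome subunits (31, median -0.04, 1 lower) and interferon-stimulated genes (28, median 0.10, 1 in each direction). DESeq2 called 1 respiratory chain gene and 0 genes of the other 5 lists. The ribosomal median turned to -0.06 and -0.02 with the length and GC trends removed. The members with the smallest p in further lists without a call were *SERPINE2* among proteases and inhibitors (log2 fold change 0.77, adjusted p = 0.0641), *PLK2* among p53 targets (-0.64, adjusted p = 0.0860), *AXL* among YAP and TAZ targets (0.45, adjusted p = 0.0993), *MT2A* among metallothioneins (0.37, adjusted p = 0.137) and *CLDN1* among cadherins and EMT genes (0.75, adjusted p = 0.155). DESeq2 called 1 gene in each of these 5 lists. *KRT7* came first among the luminal keratins (-0.36, adjusted p = 0.290), *COL7A1* among the basement membrane genes (1.17, adjusted p = 0.311) and the integrin subunit *ITGA2* among the collagen receptors (0.39, adjusted p = 0.821). DESeq2 called 0 genes in these 3 lists, and the unadjusted p was under 0.05 for 1, 5 and 1 of their members. By DESeq2, 111 genes were called in all, among them all 38 DEGs.

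Since the control lacked collagen as well as the inhibitor, the 38 genes were compared with both other collagen groups, in separate fits that share the RUNXi libraries with the comparison above. Against collagen with DDR1i, 83 of 12953 genes were called (0.641%), and 20 of the 38 were among them, all in the direction seen against the control. Against collagen alone, 380 of 13171 genes were called (2.89%), and 28 of the 38 were among them, again all in the same direction. Both references called 17 of the 38. As the 38 were chosen on the same RUNXi libraries, these shares are not independent of that choice. With collagen replicate 3 included, 34 genes were called against collagen alone.

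*AKR1C1* was higher by 2.30 on the log2 scale over collagen with DDR1i (95% interval 1.92 to 2.69, adjusted p = 3.13e-06) and by 1.61 over collagen alone (1.21 to 2.00, adjusted p = 0.000120). *FTL* was higher by 1.14 (0.91 to 1.38, adjusted p = 1.78e-05) and 0.76 (0.44 to 1.07, adjusted p = 0.0139). *DHRS3* was lower than with DDR1i (log2 difference -1.92, interval -2.51 to -1.34, adjusted p = 0.000769) and than with collagen alone (-2.71, interval -3.31 to -2.11, adjusted p = 5.04e-05). Of the 26 NRF2 targets, 9 were higher than with DDR1i and 7 higher than with collagen alone, with 0 lower in both. Over all genes tested, 34 of 12953 were higher than with DDR1i and 246 of 13171 higher than with collagen alone. Of the 31 sterol and fatty acid genes, 11 were lower than with DDR1i and 8 lower than with collagen alone, with 0 higher in both. The lower genes over all genes tested were 49 of 12953 and 134 of 13171. Of the 7 *RUNX1* targets, 0 were called against DDR1i by edgeR, and the 95% interval of the difference excluded 0 for *MYC* (0.30, interval 0.09 to 0.50, adjusted p = 0.322) and included it for the other 6. Against collagen alone *PLEC* was higher (log2 difference 0.88, adjusted p = 0.00266) and 4 were lower, *ID1*, *CEBPD* (-0.79, adjusted p = 0.0157), *ANP32B* (-0.48, adjusted p = 0.0256) and *DUT* (-0.51, adjusted p = 0.0295). Over all 13171 genes tested against collagen alone, 246 were higher and 134 lower. With collagen replicate 3 included, 34 of 13000 genes were called. *PLEC* has the longest transcript of the 7 targets (14804 bases), and the 4 lower targets have the shortest (983 to 2141 bases). In this comparison, 76 of 79 ribosomal protein, 50 of 51 respiratory chain and 31 of 31 proteasome genes had negative log2 differences. Of 20 basement membrane genes, 18 had positive ones. Calls against collagen alone were not corrected for transcript length, and a link to length was not tested.

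For *ATP2B4*, *ID1*, *ZFP36L1*, *EIF5*, *SH2D2A* and *KCNJ15*, the interval of the difference from DDR1i included 0. *ATP2B4* had a log2 difference from DDR1i of -0.08 (interval -0.37 to 0.20) and was higher than with collagen alone by 1.13 (0.79 to 1.46, adjusted p = 0.000503). *ID1* had a difference from DDR1i of -0.22 (-0.55 to 0.12) and from collagen alone of -1.18 (-1.48 to -0.88, adjusted p = 0.000120). *ZFP36L1* had a difference from DDR1i of 0.21 (-0.04 to 0.45, adjusted p = 0.781), against 0.73 (0.44 to 1.03, adjusted p = 0.00875) from collagen alone. *EIF5* differed from neither reference at the threshold (-0.02, interval -0.32 to 0.29, and -0.21, interval -0.50 to 0.08), and neither did *TXN* (0.31, interval 0.11 to 0.50, and 0.05, interval -0.23 to 0.33) or *HTRA1* (0.36, interval 0.15 to 0.58, and 0.39, interval 0.15 to 0.63). The same held for *SH2D2A*, *KCNJ15*, *SLC7A5* and *EGR1*. *AQP3* had a difference from DDR1i of -0.79 (-1.50 to -0.09, adjusted p = 0.580) and was lower than with collagen alone (-2.37, interval -3.02 to -1.72, adjusted p = 0.000222). *EGR1* had a log2 difference of the opposite sign against DDR1i, -1.35 (interval -1.94 to -0.76, adjusted p = 0.0674).

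**Figure D4:**
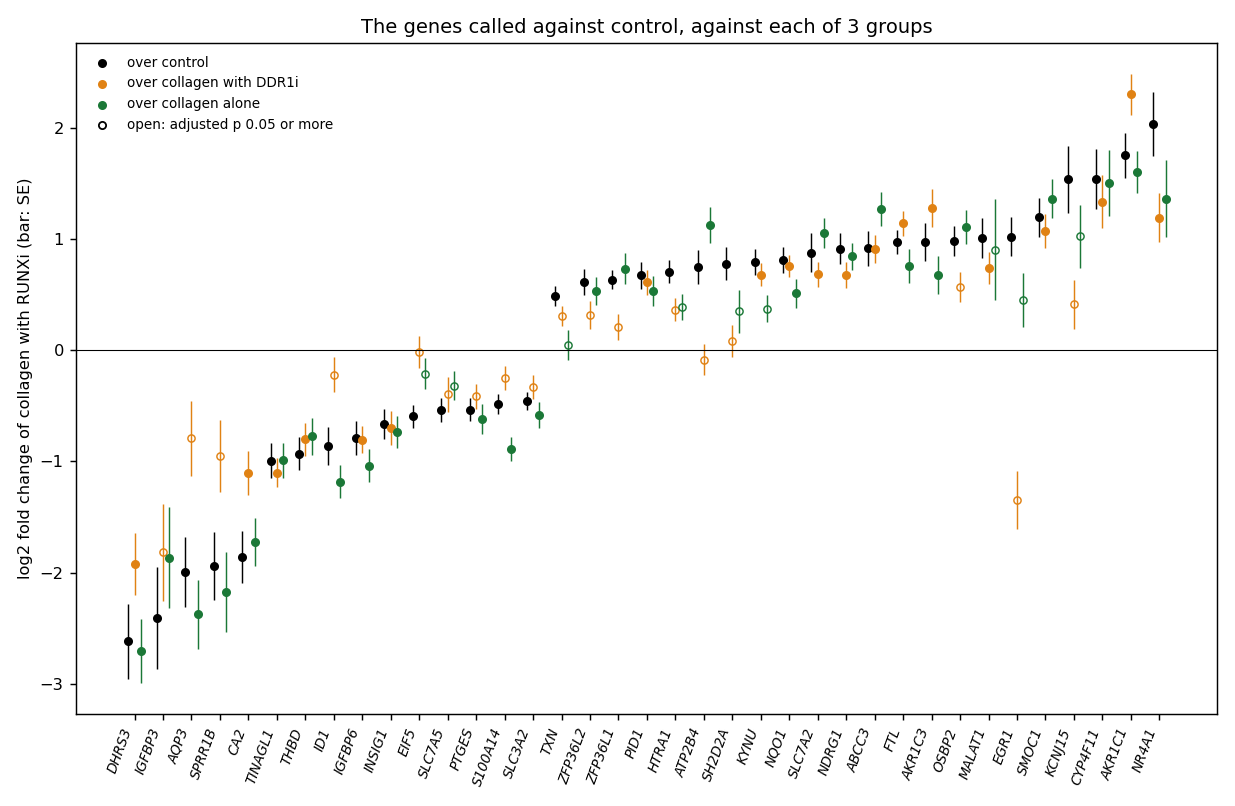
Log2 fold change of collagen with RUNXi over the control (black), over collagen with DDR1i (orange) and over collagen alone (green) for 37 of the 38 DEGs, with bars of 1 standard error. Filled points have an adjusted p under 0.05, 37 in black, 19 in orange and 28 in green, and *EGR1* is the gene with the farthest point on the opposite side of 0.

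The other groups against the same controls, in a fit of 15 libraries, give the side-by-side values. Collagen alone differed from the control in 313 of 13731 genes (2.28%), and 0 of the 38 were among them by edgeR, with 8 of the 38 at an unadjusted p under 0.05. Collagen with DDR1i differed in 17 genes (0.124%), among them *EGR1* (log2 fold change 2.37, adjusted p = 0.00500) and *ATP2B4* (0.83, adjusted p = 0.0128). For *AKR1C1* the values were 0.14 with collagen alone and -0.55 with DDR1i, for *FTL* 0.21 and -0.17, for *DHRS3* 0.09 and -0.70, and for *NR4A1* 0.67 and 0.84. These comparisons share the control libraries with the main one.

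Promoters were searched for the letters that RUNX proteins bind, since the inhibitor acts on their complex with CBFβ. RefSeq (GRCh38.p14) gave a stretch from 250 bases before to 50 bases after the start for 10070 of the genes tested and for 29 of the 38. TGTGGT or TGCGGT, on either strand, occurred in 18.5% of these 10070 stretches, in 3 of 16 of the higher genes (18.8%) in 1 of 13 of the lower genes (7.69%) and in 6 of 19 NRF2 targets with a promoter (31.6%). The stretches around the letters in the 4 genes, and in *AKR1C2* as the neighbour of *AKR1C1*, are shown 5′ to 3′ on the gene's strand, with the letters, here in the reverse orientation, in capitals.
FTL, chr19:48965173-48965273, plus strand: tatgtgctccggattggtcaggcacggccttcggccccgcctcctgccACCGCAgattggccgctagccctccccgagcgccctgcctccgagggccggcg
AKR1C1, chr10:4963181-4963281, plus strand: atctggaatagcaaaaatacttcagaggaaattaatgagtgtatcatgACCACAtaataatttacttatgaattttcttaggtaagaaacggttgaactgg
AKR1C2, chr10:5003995-5004095, minus strand: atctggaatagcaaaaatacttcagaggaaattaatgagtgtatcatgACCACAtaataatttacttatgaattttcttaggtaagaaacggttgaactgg
ATP2B4, chr1:203626647-203626747, plus strand: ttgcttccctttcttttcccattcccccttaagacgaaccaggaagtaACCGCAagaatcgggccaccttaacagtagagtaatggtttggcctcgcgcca
TINAGL1, chr1:31576265-31576365, plus strand: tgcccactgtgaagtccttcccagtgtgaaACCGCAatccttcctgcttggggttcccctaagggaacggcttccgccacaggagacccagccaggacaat

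The letters begin at position -88 from the start in *FTL*, -186 in *AKR1C1*, -190 in *AKR1C2*, -137 in *ATP2B4* and -220 in *TINAGL1*. The stretches shown for *AKR1C1* and *AKR1C2* are identical, and their full promoters match in 89.2% of positions when shifted by 4 bases. The core of the antioxidant response element, TGACNNNGC on either strand, occurred in 15.1% of all stretches, in 4 of 16 higher genes (25.0%), in 4 of 13 lower genes (30.8%) and in 5 of 19 NRF2 targets with a promoter (26.3%). A single promoter per gene was searched, and letters outside these stretches or at other promoters were not counted. The stretches of *NQO1* and *TXN* held neither motif. A match is a description of the letters and not of binding, which was not measured.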

How the data were processed

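RNA-seq was performed on MCF10A cells, and libraries were assigned to groups from the labels. The authors aligned reads to GRCh37 (hg19) with STAR and deposited raw counts per gene. The STAR version, counting tool, annotation and use of strand are not given in the sources used here, so counts of paralogs, pseudogenes and overlapping or antisense genes are uncertain. The table holds 26475 entries, 28 of them calendar dates in place of symbols (20 tested), and 23935 names matched GENCODE annotation lifted to GRCh37. Counts were analyzed in R 4.3.3 with edgeR 4.0.16 (TMM, filterByExpr, robust quasi-likelihood fit, Benjamini-Hochberg adjustment, threshold 0.05), and every adjusted p is from edgeR unless DESeq2 is named. DESeq2 1.42.0 and limma 3.58.1 (voom) were alternatives, with other normalizations, filters, libraries, a replicate block, and splines on length or GC content (4 degrees of freedom). Principal components used the 500 most variable genes. The test was checked on simulated data. Replicates differed by more than sampling noise in all pairs (lowest chi-square per degree of freedom 19.65).

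Named genes were the 8 higher and 8 lower DEGs of smallest p, the 4 of largest fold in each direction with a mean of at least 5 CPM, the RUNX complex, DDR1, DDR2 and the study's RUNX1 targets, and up to 2 DEGs per list and direction or, with none, the member of smallest p. Members and lists were chosen with earlier results of these data known. A gene left out of the text and of the figures that label genes is not reported here; it stays in the counts.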

Additional observations from a re-analysis of the deposited data

Results flagged for a closer look

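In 82 groups of 4 libraries that were examined, the highest or lowest library stood far from the other 3 in 3 cases, and chance would give 4.1. In *MALAT1*, control replicate 1 (110.3 CPM) lay above the other controls by a gap of 0.945 of the group's range. In *KCNJ15*, control replicate 4 (12.0 CPM) lay above the others by 0.835 of the range, and in *SMOC1*, RUNXi replicate 4 (86.3 CPM) by 0.831 of the range. All 3 libraries left the groups without overlap.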

How the results depend on the processing

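All 38 DEGs kept their direction in 23 other fits, and *FTL*, *AKR1C1*, *CA2*, *OSBP2*, *NQO1*, *NR4A1*, *HTRA1*, *KYNU*, *SMOC1* and *NDRG1* kept their call in all of them. Against the control (38 DEGs, 22 higher and 16 lower), DESeq2 called 111 (65 and 46), edgeR without a filter on low counts 114 (59 and 55), and unadjusted p 741 (375 and 366). Without control replicates 2 and 3 the calls were 17 (13 and 4), and correction for GC content gave 33 lower. Leaving out 1 library gave 16 to 77 DEGs (11 to 36 higher, 4 to 41 lower), with 16 without RUNXi replicate 1 or 3, 19 without control replicate 1, 22 without control replicate 2 and 77 without control replicate 4. Against DDR1i (83 DEGs), DESeq2 called 178 (81 and 97), no filter 184 (87 and 97), and leaving out 1 library gave 62 to 101 (25 to 50 higher, 37 to 53 lower). Against collagen alone (380 DEGs), DESeq2 called 1001 (522 and 479), no filter 854 (499 and 355), collagen replicate 3 included 34 (19 and 15), and leaving out 1 library gave 90 to 476 (63 to 258 higher, 27 to 218 lower). The cause was not tested. Depth limits genes of low counts, and 13669 of the 26475 entries were not tested.

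Same-numbered control and RUNXi libraries had correlations of their deviations of -0.073, -0.042, 0.053 and 0.28. Libraries of unlike number had correlations of -0.14 to 0.096. These few values cannot settle whether replicate numbers pair the libraries. With the replicate number as a block, 111 genes were called against the control (70 higher and 41 lower), or 96 (43 and 53) with the length correction as well. The block gave 301 against DDR1i (134 and 167) and 74 against collagen alone (53 and 21).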

Other observations

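Signalling and cell cycle genes without a call are given as values. *PMEPA1*, a feedback inhibitor of TGF-β signalling, had 94.0 ± 22.4 CPM in the control and 144 ± 32.8 CPM with RUNXi (SD, n = 4 each, adjusted p = 0.271 by edgeR). *AREG*, a ligand of the EGF receptor, had 563 ± 126 and 792 ± 161 CPM (adjusted p = 0.411 by edgeR). *SESN2*, a stress-induced inhibitor of mTORC1, had 63.9, 49.5, 45.9 and 17.6 CPM in the control and 23.6, 27.1, 23.0 and 18.2 CPM with RUNXi (adjusted p = 0.323 by edgeR), so that control replicate 4 lay below all RUNXi libraries and the other controls above them. *NOTCH1*, a receptor in lineage choice, and *KIF20A*, a mitotic kinesin, had log2 fold changes of -0.45 and -0.40 (adjusted p = 0.324 and 0.316 by edgeR). With collagen alone, *NOTCH1* was lower than in the control (log2 fold change -1.10, adjusted p = 0.00227 by edgeR, fit of 15 libraries). With RUNXi it was higher than with collagen alone (0.64, adjusted p = 0.0328 by edgeR). The summed level of the 8 luminal markers, mostly *KRT7*, was 2486 to 3590 CPM in the control and 2254 to 2578 CPM with RUNXi, with overlap.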
